A study of Mus musculus with 2 samples.

Results

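Transcripts of the immunoglobulin heavy chain V segments were followed in small intestine of Spib-deficient mice and of mice labelled WT. The genes were chosen by name, as every gene of the deposited table called Ighv followed by a digit, which gave 110 of 27275 genes in 14 families. The number after Ighv in a name is the family. Spib, a transcription factor of the ETS family, is needed by M cells of the gut epithelium and is also expressed by B cells. The KO library came from Spib fl/fl mice carrying Villin-Cre, in which the villin promoter drives Cre recombinase in gut epithelium and not in immune cells. The WT library has the genotype label Spib+Villin-Cre, so both labels name the Cre, and whether the WT label stands for a wild-type Spib or a single intact copy is not stated. Both libraries came from proximal small intestine of naive animals, and the sources used here do not give age, sex, strain or the number of mice behind each library. There was 1 library per genotype, so every difference below is one between 2 libraries, without a replicate check, a test or a p-value.

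The KO library had 0.592 FPKM of Spib, from 30 reads, and the WT library had 4.94 FPKM, from 247 reads, which is 8.34-fold lower in the KO library. FPKM counts the reads of a gene per unit of transcript length, scaled to the size of the library. The step size of the values implied depths of 17658566 reads in the KO library and 17425640 in the WT library. The intestinal label went with its markers, since 10 epithelial genes summed to 6845 FPKM in the KO library and 6806 FPKM in the WT library. The 16 mitochondrially encoded genes summed to 37748 FPKM in the KO library and 28256 FPKM in the WT library. Intervals beside shares and folds are exact Clopper-Pearson intervals at 95% from recovered reads. They cover counting error only, because reads amplified by PCR and not tagged by molecule cannot be counted as independent molecules.

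A heavy chain is encoded by a V, a D and a J segment that a developing B cell joins by V(D)J recombination, followed by a constant region that sets the antibody class. A mature B cell or plasma cell transcribes a single productively rearranged heavy chain V segment at a high level, from the promoter of that segment, so that V transcripts of a tissue are a mixture of the choices of its B lineage cells. In the intestine most of this RNA comes from plasma cells of the lamina propria that secrete IgA, and plasma cells hold far more immunoglobulin RNA than resting B cells. Members of a clone carry the same V segment, and the segment bears the first pair of loops that can contact antigen.

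Heavy chain V transcripts were less abundant in the KO library. The 110 segments summed to 638 FPKM in the KO library and 1877 FPKM in the WT library, or 0.169% of all FPKM in the KO table column and 0.508% in the WT column. These sums rest on 4065 reads in the KO library and 11830 in the WT library. The summed FPKM was 2.94-fold lower in the KO library, and the reads per library were 2.95-fold lower (interval 2.85 to 3.06). In bulk tissue, fewer cells of a type and less RNA per cell cannot be told apart.

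Fewer segments were detected in the KO library. That library also held fewer heavy chain V reads, and the part of this in the counts below was not tested. In the KO library 73 segments had at least 1 read and 37 were at 0, whereas in the WT library 97 had at least 1 read and 13 were at 0. At least 10 reads were found for 33 segments of the KO library and 72 of the WT library. Most segments thus had fewer than 10 reads in the KO library, and most had 10 or more in the WT library. The median FPKM over all 110 segments was 0.323 in the KO library and 6.03 in the WT library. Both libraries held reads of 67 segments, and 7 segments had none in either. Reads in the KO library alone were seen for 6 segments, with at most 4 reads each. Reads in the WT library alone were seen for 30 segments, and 11 of those had 10 or more.

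Segment by segment, most of the locus was lower, with a few members far above. The comparison took in the 73 segments with an FPKM of at least 1 in either library, on the scale log2((KO FPKM + 1)/(WT FPKM + 1)), which understates differences of low values. All 73 reached 1 FPKM in the WT library and 40 of them also did in the KO library, so 33 were compared through the WT library alone. At least 2-fold lower in the KO library were 57 segments, or 78.1%, beside 2.51% of the 13479 genes compared in the whole table. At least 2-fold higher were 4 segments, or 5.48%, beside 1.61% of all compared genes. The other 12 lay within 2-fold, 8 of them below 0 and 4 above. The median log2 ratio of the 73 segments was -2.25, against -0.05 over all compared genes. Of the 40 segments with at least 1 FPKM in both libraries, 25 were 2-fold lower, 4 were 2-fold higher and 11 lay between. The 37 segments not compared summed to 3.69 FPKM in the KO library and 9.65 FPKM in the WT library, and none of them reached 1 FPKM.

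The 4 segments that were at least 2-fold higher were Ighv10-1, Ighv3-1, Ighv3-5 and Ighv3-8. Together they held 297 FPKM in the KO library and 24.2 FPKM in the WT library, which is 46.6% of the heavy chain V FPKM of the KO library and 1.29% of that of the WT library. The rest of the segments summed to 340.3 FPKM in the KO library and 1853 FPKM in the WT library, 5.44-fold lower. The overall sum therefore joins a small set of higher segments with a large set of lower ones.

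**Figure D1:**
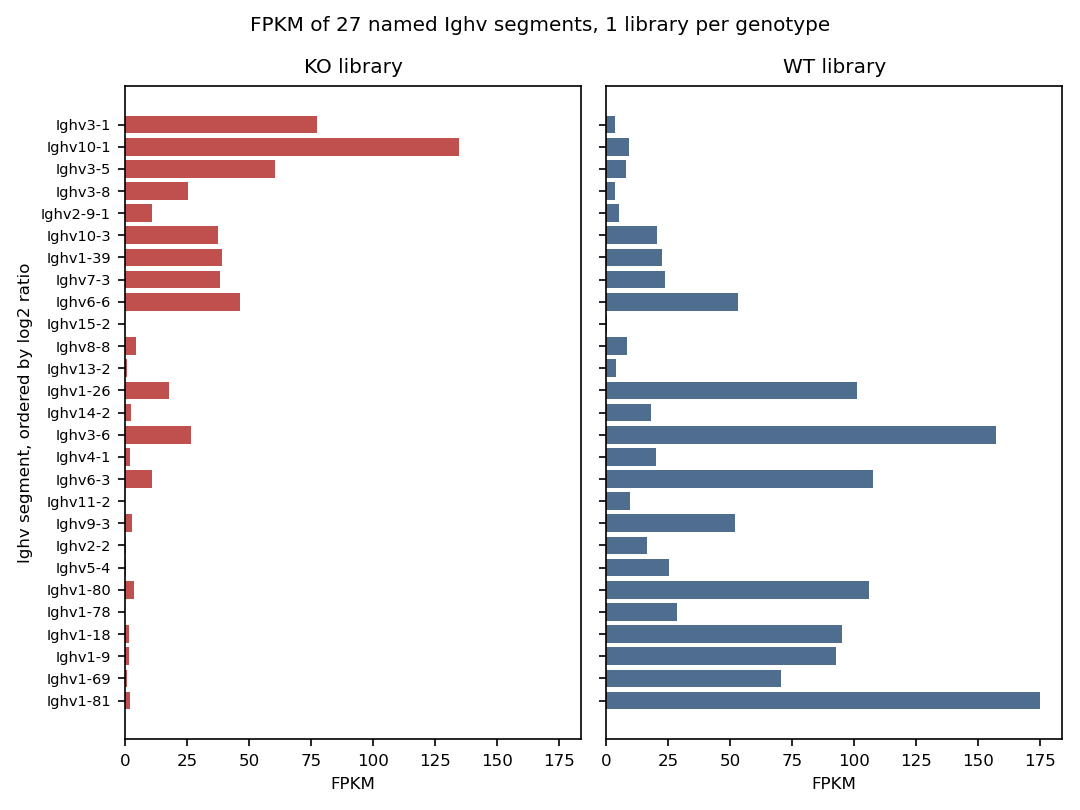
FPKM of 27 named Ighv segments in the KO library (left) and the WT library (right), ordered by log2 ratio from the highest at the top; the horizontal axes are linear and bars start at 0, with 1 library per genotype and no error bar. The bars of Ighv10-1, Ighv3-1 and Ighv3-5 are long in the KO library (135, 77.3 and 60.3 FPKM) and short in the WT library, and those of Ighv1-81 and Ighv3-6 show the opposite (175 and 158 FPKM in the WT library).

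The Ighv3 family held both directions. Ighv3-1 (ENSMUSG00000093838, minus strand of chromosome 12, 113964388 to 113964818 in mm10) had 77.3 FPKM in the KO library, from 478 reads, and 3.44 FPKM in the WT library, from 21 reads. It ranked as number 2 of the KO library and number 65 of the WT library, and was 22.5-fold higher in the KO library (interval 14.5 to 36.6). Ighv3-5 (114262652 to 114263087) had 60.3 FPKM in the KO library and 7.97 FPKM in the WT library, 7.57-fold higher (5.61 to 10.4). Ighv3-8 (114322327 to 114322801) had 25.2 FPKM in the KO library and 3.50 FPKM in the WT library, 7.195-fold higher (4.68 to 11.5). Ighv3-6 lies between Ighv3-5 and Ighv3-8 on the chromosome (114288152 to 114288582) and went the other way. Its FPKM was 26.5 in the KO library, from 164 reads, and 158 in the WT library, from 961 reads, which is 5.94-fold lower (5.03 to 7.05).

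The sequences of these relatives are shown because the direction differs within a family whose members look much alike, and a read can be placed only where they differ. Each is the first 300 bases of the V exon, 5′ to 3′ on the minus strand, from GENCODE M21 transcripts of GRCm38, which is the assembly mm10. Capitals mark bases that differ from Ighv3-6. Ighv3-6 is at chr12:114288159-114288458, Ighv3-1 at chr12:113964395-113964694, Ighv3-5 at chr12:114262662-114262961 and Ighv3-8 at chr12:114322378-114322677.
Ighv3-6: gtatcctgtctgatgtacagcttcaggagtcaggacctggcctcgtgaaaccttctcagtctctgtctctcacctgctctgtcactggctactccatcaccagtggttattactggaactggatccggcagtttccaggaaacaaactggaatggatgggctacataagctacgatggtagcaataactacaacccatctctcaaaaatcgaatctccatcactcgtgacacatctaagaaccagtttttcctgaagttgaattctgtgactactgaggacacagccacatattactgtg
Ighv3-1: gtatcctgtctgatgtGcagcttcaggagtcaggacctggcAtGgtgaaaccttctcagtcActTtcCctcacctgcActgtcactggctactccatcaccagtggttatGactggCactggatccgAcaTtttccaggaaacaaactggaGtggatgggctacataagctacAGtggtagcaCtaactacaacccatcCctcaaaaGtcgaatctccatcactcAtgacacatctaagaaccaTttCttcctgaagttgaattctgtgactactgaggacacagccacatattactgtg
Ighv3-5: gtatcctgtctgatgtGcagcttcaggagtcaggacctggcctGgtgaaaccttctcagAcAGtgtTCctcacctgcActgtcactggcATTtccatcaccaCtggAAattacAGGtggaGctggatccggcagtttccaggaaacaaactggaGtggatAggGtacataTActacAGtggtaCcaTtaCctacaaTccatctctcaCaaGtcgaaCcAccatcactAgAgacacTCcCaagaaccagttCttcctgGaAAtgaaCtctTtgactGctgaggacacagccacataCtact
Ighv3-8: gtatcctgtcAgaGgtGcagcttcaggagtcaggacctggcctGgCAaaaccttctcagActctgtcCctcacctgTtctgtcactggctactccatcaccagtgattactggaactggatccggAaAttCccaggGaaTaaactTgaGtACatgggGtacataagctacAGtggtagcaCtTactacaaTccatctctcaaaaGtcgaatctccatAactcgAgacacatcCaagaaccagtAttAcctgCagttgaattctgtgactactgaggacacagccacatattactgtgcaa
Against Ighv3-6, Ighv3-1 differed at 20 bases (93.3% identity), Ighv3-5 at 43 (84.7%) and Ighv3-8 at 31, with 3 further gap positions (88.7%). The capitals are spread along most of the printed stretch, but Ighv3-1 and Ighv3-8 have none toward its 3′ end. In Ighv3-1 that unmarked end is longer than 50 bases, so reads within it cannot be told from those of Ighv3-6. Of all 50-base windows of its transcript, Ighv3-6 had 97.1% found in no other annotated Ighv segment, Ighv3-8 had 99.7%, Ighv3-5 had 94.7% and Ighv3-1 had 76.7%. The closest relative of Ighv3-1 was Ighv3-2, an annotated pseudogene with 94.3% identity, which had 0 reads in the KO library and 1 in the WT library.

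As a family, Ighv3 had nearly the same sum in both libraries from different segments. The 7 segments summed to 189.5 FPKM in the KO library and 173 FPKM in the WT library, 1.09-fold higher. Ighv3-1 made up 40.8% of the family in the KO library, and Ighv3-6 made up 90.8% of it in the WT library. Without Ighv3-6 the family had 163 FPKM in the KO library and 15.9 FPKM in the WT library, 10.3-fold higher. As a share of heavy chain V FPKM, Ighv3 held 29.7% (28.3 to 31.2) in the KO library and 9.24% (8.72 to 9.79) in the WT library. The remaining members Ighv3-2, Ighv3-3 and Ighv3-4 had at most 5 reads in either library.

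Ighv10 was the family with the greatest fold toward the KO library. Its segments are known from antibodies to DNA, among others. Ighv10-1 (ENSMUSG00000095981, 114479005 to 114479451) was the most abundant segment of the KO library, with 135 FPKM from 853 reads, and ranked number 46 in the WT library, with 9.27 FPKM from 58 reads. It was 14.5-fold higher in the KO library (11.1 to 19.3), and its share was 21.1% (19.9 to 22.4) in the KO library and 0.494% (0.375 to 0.638) in the WT library. Ighv10-3 (114523441 to 114523905) had 37.6 FPKM in the KO library and 20.2 FPKM in the WT library, 1.85-fold higher (1.497 to 2.31) and within 2-fold. Ighv10-4, a pseudogene, had no read. The family summed to 172 FPKM in the KO library and 29.5 FPKM in the WT library, 5.83-fold higher (4.88 to 6.68), and its share was 26.99% in the KO library and 1.57% in the WT library.

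Ighv10-1 and Ighv10-3 are shown in the same way, because reads of the leading KO segment could be taken for those of its near copy. Capitals in Ighv10-1, at chr12:114479018-114479317, mark the bases that differ from Ighv10-3, at chr12:114523454-114523753.
Ighv10-3: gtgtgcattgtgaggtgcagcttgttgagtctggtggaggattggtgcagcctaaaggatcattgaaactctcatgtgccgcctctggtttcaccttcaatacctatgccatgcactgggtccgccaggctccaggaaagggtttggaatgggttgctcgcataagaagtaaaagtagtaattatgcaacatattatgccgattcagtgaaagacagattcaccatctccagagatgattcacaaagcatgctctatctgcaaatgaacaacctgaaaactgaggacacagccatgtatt
Ighv10-1: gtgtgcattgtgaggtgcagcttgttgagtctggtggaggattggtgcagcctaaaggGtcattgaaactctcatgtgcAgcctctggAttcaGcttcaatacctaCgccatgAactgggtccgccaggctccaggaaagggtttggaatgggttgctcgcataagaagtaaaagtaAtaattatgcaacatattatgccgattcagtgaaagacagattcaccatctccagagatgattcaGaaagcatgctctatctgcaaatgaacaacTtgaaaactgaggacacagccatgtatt
They differed at 9 of these bases and were 97.0% identical. Of 50-base windows, 77.7% of Ighv10-1 and 79.0% of Ighv10-3 occurred in no other annotated segment, and the shared windows of each were with the other. The sources used here do not say how reads of shared stretches were divided, so the split between Ighv10-1 and Ighv10-3 is less certain than their sum. The order of the pair differed between the libraries. Ighv10-1 made up 78.2% of the family in the KO library, and Ighv10-3 made up 68.6% of it in the WT library.

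Ighv3 and Ighv10 together held 56.7% of heavy chain V FPKM in the KO library and 10.8% in the WT library. The other families summed to 276 FPKM in the KO library and 1674 FPKM in the WT library, 6.06-fold lower.

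Ighv1, the largest family of the mouse locus, was lower in most of its members. Of its 52 segments 38 were compared, and 33 of them were at least 2-fold lower, none was 2-fold higher and 5 lay between. Beside this, 78.1% of all compared Ighv segments and 2.51% of all compared genes were 2-fold lower, so most of the locus shared this direction. The family summed to 137 FPKM in the KO library and 1159.6 FPKM in the WT library, 8.48-fold lower (7.81 to 8.995). Its share of heavy chain V FPKM was 21.5% (20.2 to 22.7) in the KO library and 61.8% (60.9 to 62.7) in the WT library. At least 10 FPKM was reached by 4 of its segments in the KO library and 25 in the WT library.

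Ighv1-81 (ENSMUSG00000094689, 115920279 to 115920712) was the most abundant segment of the WT library. It had 1.94 FPKM in the KO library, from 12 reads, and 175 FPKM in the WT library, from 1072 reads, 90.5-fold lower (51.6 to 176). It held 0.304% of heavy chain V FPKM in the KO library and 9.34% in the WT library. Its neighbour Ighv1-80 had 3.39 FPKM in the KO library and 106 FPKM in the WT library, 31.3-fold lower (20.3 to 50.9). Ighv1-18 had 1.61 FPKM in the KO library and 95.3 FPKM in the WT library, 59.1-fold lower (31.9 to 124). Ighv1-9 had 1.45 FPKM in the KO library and 92.9 FPKM in the WT library, 64.0-fold lower (33.5 to 141). Ighv1-81, Ighv1-80, Ighv1-18 and Ighv1-9 held the rank numbers 28, 22, 33 and 34 in the KO library and 1, 4, 6 and 7 in the WT library. Ighv1-69 had 5 reads in the KO library and 432 in the WT library, 87.5-fold lower (37.2 to 271).

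Some members of Ighv1 were less far apart. Ighv1-26 had 17.6 FPKM in the KO library and 101 FPKM in the WT library, 5.75-fold lower (4.69 to 7.12), and was among the 10 most abundant segments of each. Only 51.0% of its 50-base windows were found in no other segment. Ighv1-39 was the single compared member of the family with a higher FPKM in the KO library, at 39.0 FPKM from 242 reads, against 22.6 FPKM from 138 reads in the WT library, a 1.73-fold difference (1.40 to 2.15). Ighv1-72, picked after its values were seen because it is the segment of the classical antibody response of C57BL/6 mice to the hapten nitrophenyl, had 8.01 FPKM in the KO library and 12.8 FPKM in the WT library, 1.59-fold lower (1.13 to 2.27). Of its 50-base windows 7.49% were found in no other segment, so its value can hold reads of its relatives.

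The segments at 0 in the KO library included some that were well covered in the WT library. Ighv1-78 had 0 reads in the KO library and 188 in the WT library, at 28.7 FPKM. Counted against a floor of 3 reads for the KO library, it was at least 63.5-fold lower, and the exact interval, which also takes in the counting error of the WT reads, begins at 51.1-fold. Ighv1-77, at 0 and 148 reads, was at least 49.99-fold lower against that floor (interval from 40.2), and Ighv5-17, at 0 and 132 reads, at least 44.6-fold lower (interval from 35.8). Ighv1-77 and Ighv5-17 were picked after their values were seen, as the next in WT reads. The exact interval of 0 among 4065 heavy chain V reads reaches a share of 0.0907% in the KO library, while these 3 segments held between 0.997% and 1.53% in the WT library. With the 12 compared segments that were at 0 in the KO library set to that floor, the median log2 ratio was -2.20 and 55 segments were 2-fold lower.

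The Ighv6 family kept its share while its order changed. Its 4 segments summed to 57.0 FPKM in the KO library and 161 FPKM in the WT library, 2.83-fold lower, which was 8.94% of the KO and 8.60% of the WT heavy chain V FPKM. Ighv6-6 had 46.2 FPKM in the KO library and 53.2 FPKM in the WT library, with an interval of the fold that includes 1 (1.15-fold lower, 0.982 to 1.35). Ighv6-3 had 10.8 FPKM in the KO library and 108 FPKM in the WT library, 9.97-fold lower (7.76 to 13.0). Ighv6-6 made up 81.0% of the family in the KO library, and Ighv6-3 made up 66.8% of it in the WT library. Their sequences are given as a further pair of relatives with unlike values. Capitals in Ighv6-6, at chr12:114434799-114435098, mark the bases that differ from Ighv6-3, at chr12:114391722-114392021.
Ighv6-3: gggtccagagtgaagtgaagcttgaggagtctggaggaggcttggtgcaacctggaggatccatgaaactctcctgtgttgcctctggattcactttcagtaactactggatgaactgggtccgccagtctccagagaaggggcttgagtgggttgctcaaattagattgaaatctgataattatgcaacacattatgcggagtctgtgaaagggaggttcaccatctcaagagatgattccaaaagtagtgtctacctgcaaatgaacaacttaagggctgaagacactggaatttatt
Ighv6-6: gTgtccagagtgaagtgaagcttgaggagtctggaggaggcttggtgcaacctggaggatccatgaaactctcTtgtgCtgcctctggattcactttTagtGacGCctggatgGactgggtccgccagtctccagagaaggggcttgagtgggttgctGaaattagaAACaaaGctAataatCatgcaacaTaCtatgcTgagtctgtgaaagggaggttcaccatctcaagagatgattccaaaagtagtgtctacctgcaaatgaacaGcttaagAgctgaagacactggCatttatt
The pair differed at 21 bases and was 93.0% identical. Windows of 50 bases found in no other segment were 80.8% of Ighv6-6 and 86.0% of Ighv6-3.

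Ighv7 was the other family with a nearly equal sum, at 41.7 FPKM in the KO library and 43.8 FPKM in the WT library, 1.05-fold lower (0.889 to 1.25). Its share was 6.54% in the KO library and 2.33% in the WT library. Ighv7-3 had 38.1 FPKM in the KO library and 23.8 FPKM in the WT library, 1.60-fold higher (1.30 to 1.97). Ighv7-1, named after its values were seen because antibodies to phosphorylcholine often use it, had 3.59 FPKM in the KO library and 19.1 FPKM in the WT library, 5.33-fold lower (3.39 to 8.73). Ighv7-4 had 0 reads in the KO library and 6 in the WT library, so this family too held members of both directions.

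The families nearest to the D segments were lower. Ighv5 had 7.26 FPKM in the KO library and 103 FPKM in the WT library, 14.2-fold lower (11.4 to 21.1). Of its 7 compared segments 6 were 2-fold lower, beside 78.1% of all compared Ighv segments and 2.51% of all compared genes. Its most abundant member by mean, Ighv5-4, had 0.400 FPKM in the KO library and 25.4 FPKM in the WT library. Ighv5-6, named after its values were seen, was the exception, at 4.81 FPKM in the KO library and 6.18 FPKM in the WT library, and made up 66.3% of the family in the KO library. Ighv2 had 12.3 FPKM in the KO library and 42.3 FPKM in the WT library, 3.45-fold lower (2.58 to 4.33). Ighv2-2 had 1 read in the KO library and 100 in the WT library. Ighv2-9-1 had 10.7 FPKM in the KO library and 5.13 FPKM in the WT library, 2.09-fold higher as a plain ratio (1.37 to 3.27), and its log2 ratio of 0.94 with the pseudocount stayed under 2-fold.

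The families Ighv4, Ighv8, Ighv9, Ighv11 and Ighv13 to Ighv15 were each lower in their sums. Ighv9 had 4.36 FPKM in the KO library and 69.0 FPKM in the WT library, 15.8-fold lower (10.7 to 24.3), with Ighv9-3 at 2.74 FPKM in the KO library and 51.8 FPKM in the WT library. Ighv14 had 7.10 FPKM in the KO library and 44.1 FPKM in the WT library, 6.21-fold lower (4.34 to 8.21). All 4 of its segments were 2-fold lower, beside 78.1% of all compared Ighv segments and 2.51% of all compared genes. Among them was Ighv14-2, at 2.42 FPKM in the KO library and 17.8 FPKM in the WT library. Ighv4-1 had 1.64 FPKM in the KO library and 19.96 FPKM in the WT library, 12.2-fold lower. Ighv11-2 is known from B-1 cells, where antibodies to phosphatidylcholine use it. It had 0 reads in the KO library and 76 in the WT library, at least 25.7-fold lower against the floor of 3 reads, with an exact interval that begins at 20.4-fold. Ighv8 summed to 7.45 FPKM in the KO library and 17.3 FPKM in the WT library, 2.32-fold lower (1.64 to 3.35), and its Ighv8-8 had 4.27 FPKM in the KO library and 8.18 FPKM in the WT library. Ighv13-2 had 3 reads in the KO library and 24 in the WT library, and Ighv15-2 had 0 and 2 reads, near the detection limit in both. Across the 14 families the sum was higher in the KO library for 2, Ighv3 and Ighv10, and the share was higher for 5.

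**Figure D2:**
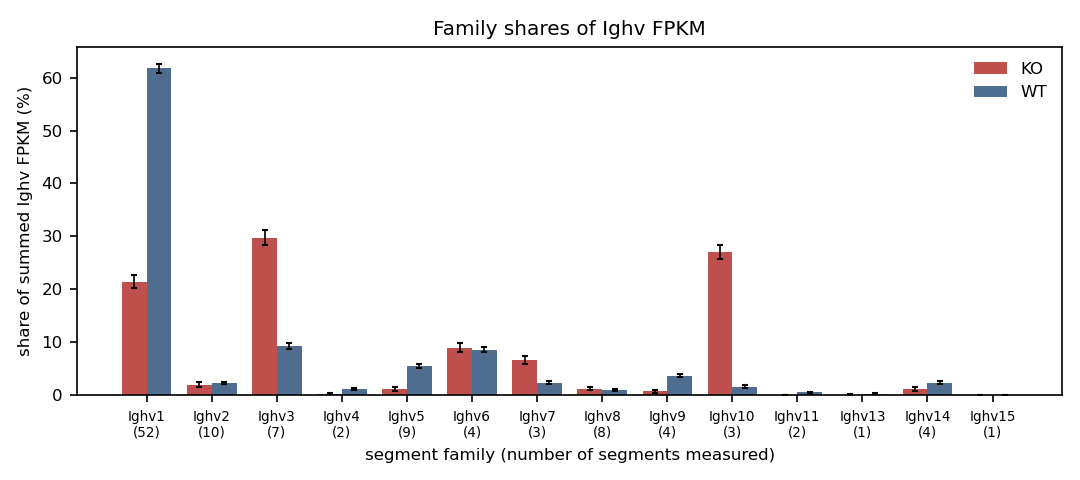
Share of the summed Ighv FPKM held by each of the 14 segment families, in percent, with the KO library in red on the left of each pair and the WT library in blue on the right; the bars start at 0, the error bars are exact 95% counting intervals from recovered reads, and the number of segments measured stands under each family. Ighv1 holds 21.5% in the KO library and 61.8% in the WT library, whereas Ighv3 and Ighv10 hold 29.7% and 26.99% in the KO library and 9.24% and 1.57% in the WT library.

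The KO library was the more concentrated. Its most abundant segment held 21.1% of heavy chain V FPKM, against 9.34% for that of the WT library. The first 3 held 42.7% in the KO library and 23.5% in the WT library, and the first 10 held 78.8% in the KO library and 54.2% in the WT library. Reaching 50% of the FPKM took 5 segments in the KO library and 9 in the WT library, and reaching 90% took 18 in the KO library and 41 in the WT library. The effective number of segments, which is the inverse of the summed squared shares, was 11.0 in the KO library and 25.7 in the WT library. The KO library also had fewer heavy chain V reads, and the part of that in these differences was not tested.

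**Figure D3:**
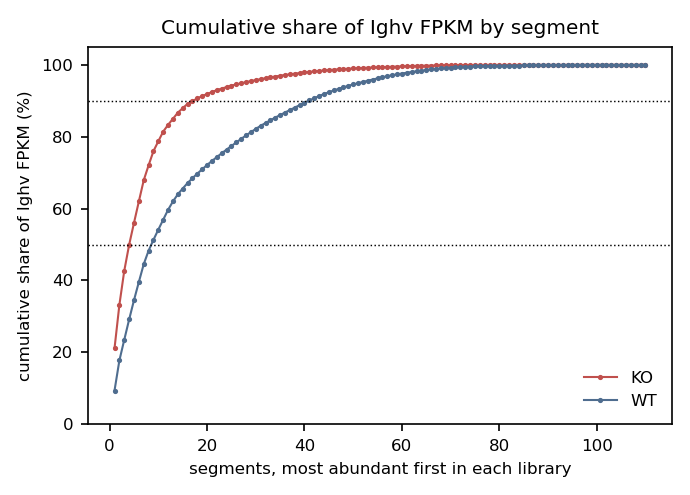
Cumulative share of Ighv FPKM in percent against the number of segments, ordered from the most abundant in each library, for the KO library (red) and the WT library (blue); dotted lines mark 50% and 90%. The KO curve crosses these lines at 5 and 18 segments and the WT curve at 9 and 41.

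Different segments led the libraries. In the KO library the first 8 were Ighv10-1, Ighv3-1, Ighv3-5, Ighv6-6, Ighv1-39, Ighv7-3, Ighv10-3 and Ighv3-6. The 8 leading segments of the WT library were Ighv1-81, Ighv3-6, Ighv6-3, Ighv1-80, Ighv1-26, Ighv1-18, Ighv1-9 and Ighv1-69. Of the 10 most abundant segments in each, 3 were shared, namely Ighv1-26, Ighv3-6 and Ighv6-6. The 10 leading WT segments held 19.2% of the FPKM in the KO library, and the 10 leading KO segments held 21.5% of that in the WT library. At least 10 FPKM was reached by 14 segments in the KO library and 44 in the WT library, and 9 of these were the same. Across the 73 compared segments, which come from the same pair of libraries and differ in length, FPKM in the KO and WT libraries had a Spearman correlation of 0.336, given as a description.

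Position along the locus was described because V segments are read in one transcriptional direction from a cluster of known order. The measured segments spanned 2426 kb of the minus strand of chromosome 12, from 113574245 to 116000461, with the end nearest to the D segments at the low coordinate. Counted from that end in steps of 500 kb, the first stretch summed to 109 FPKM in the KO library and 239.9 FPKM in the WT library, 2.197-fold lower. The second, which holds Ighv3-5, Ighv3-8 and both transcribed Ighv10 segments, had 389 FPKM in the KO library and 485 FPKM in the WT library, 1.25-fold lower. It held 61.0% of the heavy chain V FPKM of the KO library and 25.8% of that of the WT library. Beyond 1000 kb, where Ighv1 and Ighv8 remain, no compared segment was 2-fold higher. The last stretch, with Ighv1-81 and Ighv1-80, had 23.8 FPKM in the KO library and 499 FPKM in the WT library, 20.97-fold lower, which was 3.73% of the KO and 26.6% of the WT sum. At least 2-fold lower there were 12 of 14 compared segments, beside 78.1% of all compared Ighv segments and 2.51% of all compared genes.

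**Figure D4:**
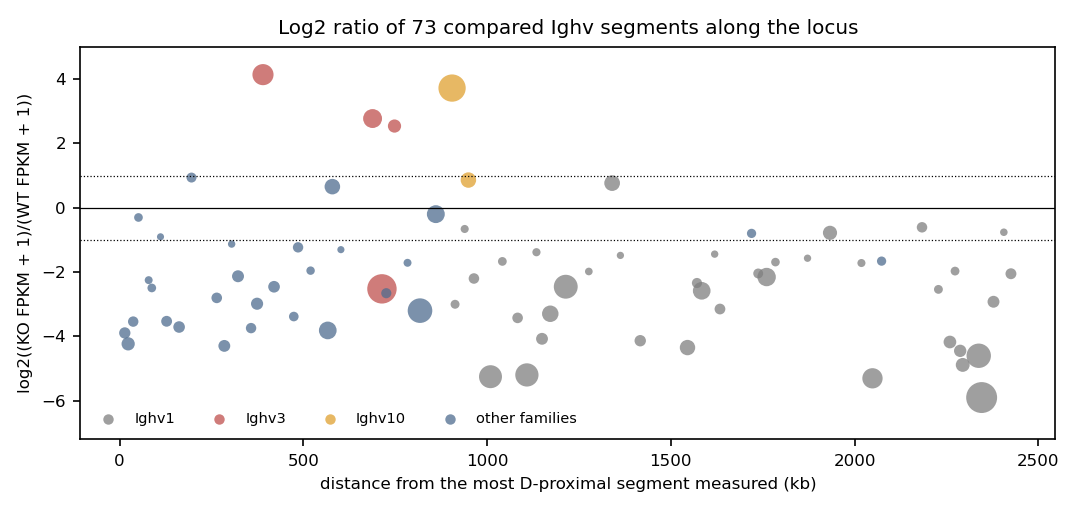
Log2 ratio of KO over WT, log2((KO FPKM + 1)/(WT FPKM + 1)), of the 73 compared Ighv segments. The horizontal axis is their distance in kb from the most D-proximal segment measured. Each point is 1 segment, and its area grows with the larger of its KO and WT FPKM. Colours mark families, and dotted lines mark 2-fold. The 4 segments above the upper line belong to Ighv3 and Ighv10 and lie within the first 1000 kb, next to segments far below 0 such as Ighv3-6.

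Other parts of the antibody message were lower in the KO library as well. The 8 heavy chain constant regions, which set the class, summed to 173 FPKM in the KO library and 704 FPKM in the WT library, 4.07-fold lower. Igha, the constant region of IgA, had 151 FPKM in the KO library and 655 FPKM in the WT library, 4.33-fold lower (4.22 to 4.44). Ighm, that of IgM, had 16.5 FPKM in the KO library and 28.8 FPKM in the WT library, 1.75-fold lower (1.57 to 1.95). Igha made up 87.6% of constant region FPKM in the KO library and 93.1% in the WT library, and Ighm made up 9.52% in the KO library and 4.09% in the WT library. Ighg2b, an IgG constant region, had 24 reads in the KO library and 475 in the WT library, 20.1-fold lower (13.3 to 31.6).

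Relative to Jchain and to light chain V segments the heavy chain V level was close in the libraries, and relative to constant regions it was higher in the KO library. Per FPKM of Jchain, the chain that joins IgA or IgM units, there were 11.0 FPKM of heavy chain V in the KO library and 10.4 FPKM in the WT library. Per FPKM of light chain V segments there were 0.979 in the KO library and 1.05 in the WT library, and per FPKM of constant region 3.69 in the KO library and 2.67 in the WT library. The 99 light chain V segments summed to 651 FPKM in the KO library and 1782 FPKM in the WT library, 2.74-fold lower. Of the 71 compared, 52 were 2-fold lower and 5 were 2-fold higher, with a median log2 ratio of -1.75. Over all compared genes 2.51% were 2-fold lower and 1.61% were 2-fold higher. Single light chain segments were not described here.

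Markers of the cells that make antibodies were also lower as summed lists, and their part in the result was not tested. The 12 B cell genes summed to 13.7 FPKM in the KO library and 35.3 FPKM in the WT library, 2.57-fold lower, and none was at 0. Of the 11 compared, 2 were 2-fold lower on the log2 scale with the pseudocount, the receptor chains Cd79a and Cd79b, and none was 2-fold higher. For this and the lists below, the share of all compared genes that was 2-fold lower on that scale was 2.51%. The 11 plasma cell genes summed to 217 FPKM in the KO library and 379 FPKM in the WT library, 1.75-fold lower. Of the 10 compared, 4 were 2-fold lower on the log2 scale with the pseudocount, namely Jchain, Mzb1, Derl3 and Pou2af1. Epithelium also transcribes Sdc1, Xbp1, Txndc5 and Prdm1 of that list. The coactivator Pou2af1, which acts at the octamer of V promoters, had 2.27 FPKM in the KO library and 7.18 FPKM in the WT library, 3.17-fold lower (2.53 to 4.001). Of 9 factors of immunoglobulin promoters and enhancers, 7 were compared, and on the log2 scale with the pseudocount Pou2af1 was the single one past 2-fold. As plain ratios of low values, the B cell factor Pax5 was 4.01-fold lower (2.88 to 5.69) and the plasma cell factor Irf4 2.67-fold lower (2.06 to 3.50). Genes of lymphoid follicles were lower too, with Cxcl13, Ltb and Ccr7 past 2-fold on that scale among 4 compared, and their list summed to 23.5 FPKM in the KO library and 40.7 FPKM in the WT library.

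**Figure D5:**
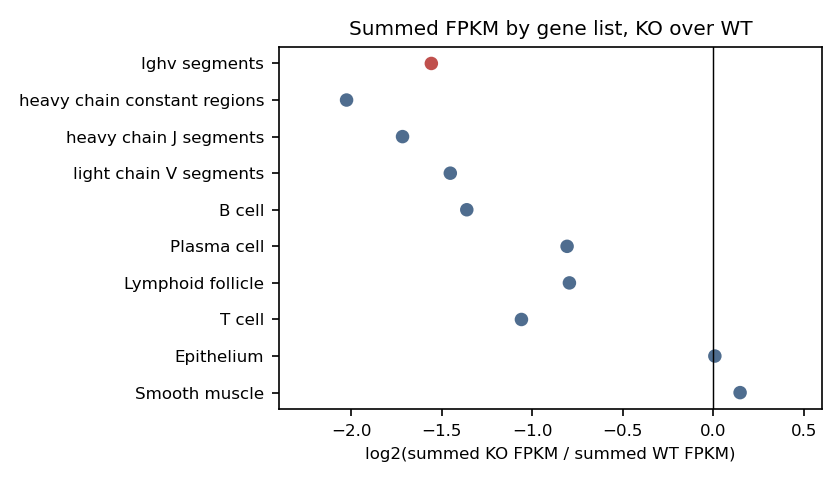
Log2 ratio of the summed FPKM, KO over WT, for the 110 Ighv segments (red) and 9 other gene lists (blue), 1 point per list and no error bar. Ighv segments lie at -1.56, between the heavy chain J segments at -1.72 and the light chain V segments at -1.45, while epithelium and smooth muscle lie at 0.01 and 0.15.

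Sequence likeness limits values of single segments more than sums. Identity between the first 300 bases of 2 members of Ighv1 ranged from 70.0% to 100%, with a median of 85.0%, so that a stretch of 50 bases can belong to more than 1 member. Over the 110 segments, the median share of 50-base windows found in no other segment was 78.6%, with a range of 2.58% to 100%. The 98 segments with at least 50% distinct windows summed to 617 FPKM in the KO library and 1733 FPKM in the WT library, 2.81-fold lower. The 12 others, taken apart after the data were seen, summed to 20.5 FPKM in the KO library and 144 FPKM in the WT library. The 4 higher segments were all among the 98. The 9 segments annotated as pseudogenes, which have no productive product, had 4 reads in the KO library and 6 in the WT library.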

How the data were processed

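Per the labels' protocols, TRIzol was used for extraction and SMART-Seq II, a full-length transcript method, for cDNA amplification. The deposited table holds FPKM values, which the authors computed per gene and library. The submitters' processing notes name Bowtie2 2.2.3, HTSeq 0.6.0 and mm10 and give no roles. The sources used here do not give the read length, the strand setting, the treatment of reads with several origins or the strain of the mice, and mm10 holds the heavy chain locus of the C57BL/6J strain.

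The members and gene lists were chosen with earlier results of these data known. Exon lengths and coordinates came from GENCODE M21. Its symbol was equal for all 110 segments, and 75 further Ighv genes of GENCODE M21 were not analysed here. FPKM times exon length gave whole reads, within 0.01 of a read, for 90.5% of values above 0 in each library and for every Ighv value. Recovered reads served for counting intervals, for the read counts given, for folds against 3 reads and for values said to be by reads. The procedure was tested on simulated data. Share intervals were taken from read shares and scaled to the FPKM share. A gene was compared, with a pseudocount of 1, where either library reached 1 FPKM. The named segments are the 8 with the highest share in each library, the 6 highest and 6 lowest log2 ratios among the 60 segments of at least 5 FPKM in either library, and the most abundant segment of each family, which together gave 27. Other segments are said to have been chosen after their values were seen, except the members of small families. For each gene at 0 in 1 library, a fold is given against 3 reads. Sequences were aligned with Biopython 1.88 over the first 300 bases of the V exon. Python 3.11.15, pandas 2.3.3, numpy 2.4.6, scipy 1.17.1 and matplotlib 3.10.9 were used. The alternatives were other pseudocounts, filters, scalings, units and sets of segments.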

Additional observations from a re-analysis of the deposited data

How the results depend on the processing

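With 1 library per genotype no library could be left out, and every value is limited to this pair of libraries. No paired analysis was possible because each genotype has 1 library and no test was made. Of 37 values under alternatives, 29 stayed within the margin set for them and 8 moved. Some of the 29 could not have moved. No pseudogene exceeded 0.325 FPKM, so leaving pseudogenes out could not change the counts past 2-fold or the median log2 ratio. With a pseudocount of 1, a segment under 1 FPKM in both libraries cannot reach 2-fold. Dropping the filter on low values therefore could not change those counts either. The margin is 1.5 times for a count and the counting or rank interval for the others. A change of direction was possible only for the median log2 ratio and the summed ratio, and it occurred for neither. The median log2 ratio of -2.25 was -3.16 when the pseudocount was 0.1, -1.34 when it was 5, and -1.27 over all 110 segments without a filter on low values. The summed KO over WT ratio of 0.340 (2.94-fold lower) was 0.296 (3.38-fold lower) without the most abundant segment of each library, and 0.356 (2.81-fold lower) over segments with mostly distinct 50-base windows, an alternative chosen after seeing the data. Without the most abundant segments the Ighv1 share was 26.9% in the KO library and 58.2% in the WT library. By recovered reads the 10 leading segments held 52.7% in the WT library. Over all settings run, the count of segments 2-fold lower lay between 41, with a pseudocount of 5, and 59 and that of segments 2-fold higher between 4 and 5. Scaling by the median ratio of 6858 genes, 0.975, gave a summed ratio of 0.349. A pseudocount added to both libraries cannot change the direction of a ratio. Scaling by that median ratio could turn only ratios close to 1, and none of the 27 named segments changed direction. The cause of these shifts was not tested. Depth limits segments below about 3 reads, which at the median length of 353 bases is 0.481 FPKM in the KO library and 0.488 FPKM in the WT library.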

Other observations

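Recombination joins V segments to D and J segments, and short J and D segments were measured at low counts. The 4 heavy chain J segments summed to 25.7 FPKM in the KO library, from 24 reads, and 84.5 FPKM in the WT library, from 83 reads, 3.29-fold lower. Ighj4 had 8 reads in the KO library and 40 in the WT library, 5.07-fold lower (2.34 to 12.5). Ighj3 had 11 reads in the KO library and 27 in the WT library, 2.49-fold lower (1.19 to 5.56). Ighj1 had 3 reads in the KO library and 1 in the WT library. Of 3 D segments measured, Ighd2-3 had 0 reads in the KO library and 3 in the WT library and the others had none.

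Genes of early B cell development had few reads, and genes of germinal centre B cells are given after them. The recombinase genes Rag1 and Rag2 had 1 and 0 reads in the KO library and 0 and 1 in the WT library. Vpreb3, a partner of the precursor receptor, had 9 reads in the KO library and 27 in the WT library, 3.04-fold lower (1.39 to 7.35). Gcsam, a signalling protein of germinal centre B cells, had 2 reads in the KO library and 23 in the WT library, 11.7-fold lower (2.88 to 102). It was below 1 FPKM in each library and did not enter the comparison. Bcl6 is a repressor of germinal centre B cells that other cells of the gut also transcribe. It had 2.11 FPKM in the KO library, from 250 reads, and 1.67 FPKM in the WT library, from 195 reads.

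The V segments of T cell receptors, which rearrange in the thymus in the same manner, were sparse. The 59 measured summed to 4.92 FPKM in the KO library, from 36 reads, and 15.8 FPKM in the WT library, from 114 reads, 3.21-fold lower. Reads were found for 19 of them in the KO library and 37 in the WT library. Of 4 compared, 1 was 2-fold lower on the log2 scale with the pseudocount. The 11 T cell marker genes summed to 13.2 FPKM in the KO library and 27.6 FPKM in the WT library, 2.08-fold lower, and Trac, the constant region of the alpha chain, was the 1 of 9 compared past 2-fold on the log2 scale with the pseudocount. Over all compared genes 2.51% were 2-fold lower on that scale. As plain ratios Cd3d, Cd3g, Cd8a, Trbc1 and Cd3e were between 2.83-fold and 2.21-fold lower. The other compared genes of that list stayed under 2-fold. Cd4 was 1.81-fold lower. Cd2 (1.35-fold lower, 0.771 to 2.40) and Trbc2 (1.38-fold lower, 0.907 to 2.10) had intervals that include 1.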
